A study of Homo sapiens with 8 samples.

Results

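The genes described here encode the proteins of epithelial cell-cell junctions: the claudins, occludin (OCLN), F11R and zonula occludens scaffolds of tight junctions, the cadherins and plaque proteins of desmosomes, and the cadherins and catenins of adherens junctions, with the adhesion molecule EPCAM. They were chosen by gene symbol (the families CLDN, DSC, DSG, PKP and TJP, plus CDH1, CDH3, DSP, JUP, OCLN, EPCAM, F11R, CTNNA1 and CTNND1), which gave 47 of the 18656 genes listed. Of these, 28 passed the filter on low values and 19 did not. The values come from SW480, an established human colorectal cancer line, whose total RNA was sequenced after removal of ribosomal RNA. There were 4 groups of 2 libraries, 8 in all: a negative-control siRNA labelled 0 h, and an siRNA against TCF7L2 for 24, 48 or 72 h, delivered with a lipid reagent. TCF7L2 encodes a DNA-binding factor through which beta-catenin acts on Wnt target genes. All groups are the same cell line, and negative-control siRNA was labelled at 0 h only. The effect of the siRNA and that of time since transfection therefore cannot be told apart, either against 0 h or between siRNA times. Whether replicates came from separate cultures is not in the labels, and p-values cover only the spread between these libraries, which may be technical.

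Tight junctions close the space between neighbouring epithelial cells. Claudins form their strands and set which ions pass, and the zonula occludens proteins tie those strands to actin. Desmosomes hold cells together mechanically: desmocollins (DSC) and desmogleins (DSG) on opposite membranes bind each other, and plakoglobin, plakophilins and desmoplakin link them to keratin filaments. In adherens junctions, cadherins bind p120-catenin directly and reach actin through beta- and alpha-catenin. In normal colon epithelium the main desmosomal cadherins are DSG2 and DSC2, whereas DSG1, DSG3, DSG4, DSC1 and DSC3 are known mostly from stratified epithelia such as skin.

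Levels are given as scaled TPM, the authors' length-normalised transcript share divided by 1 factor per library that brought the libraries to a common median ratio. The factors lay between 0.801 and 1.070, the lowest being that of the second 72 h library, whose listed TPM also had the lowest sum (352455.7, against 448107.5 to 485601.5 in the other 7 libraries). TPM carries no read depth, so the depth and the counting error behind a level are unknown. A fold change is a difference on the log2(scaled TPM + 1) scale with its standard error (SE), and understates the change of low genes. Adjusted p-values are from limma with Benjamini-Hochberg adjustment over the 11889 genes that had a scaled TPM of at least 1 in at least 2 libraries, two-sided, with a threshold of 0.05.

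The targeted gene TCF7L2 had 6.46 and 6.98 scaled TPM in the 0 h controls, 5.80 and 5.10 at 24 h, 4.68 and 3.83 at 48 h, then 3.95 and 4.41 at 72 h. All 6 siRNA libraries lay below both controls. Its log2 fold change was -0.26 ± 0.11 at 24 h (limma adjusted p = 0.287), then -0.56 ± 0.11 at 48 h (adjusted p = 0.00745) and, by 72 h, -0.58 ± 0.11 (adjusted p = 0.00211). The call at 48 h was lost without the second control library (adjusted p = 0.0544) or the second 48 h library (adjusted p = 0.0605). Of 12 colorectal epithelial markers, 9 had a scaled TPM of at least 1 in both control libraries, whereas KRT20 and GPA33 were below 1 in both. Of 8 fibroblast markers, 3 passed the filter on low values, among them COL3A1, which was below 1 in both controls. The summed level of all 8 was 45.2 to 50.8 scaled TPM at 72 h, against 10.2 to 12.2 in the controls. LUM led that list, with COL1A2, DCN, PDGFRA, PDGFRB and THY1 below 1 scaled TPM in every library. Endothelial markers summed to at most 0.582 and blood cell markers to at most 2.83 scaled TPM in any library. The part of the fibroblast markers in the results for junction genes was not tested, and in bulk RNA fewer cells expressing a gene and less of its RNA per cell cannot be told apart.

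The desmosomal cadherin genes are neighbours. In the RefSeq gene order of human chromosome 18 they run CDH2, DSC3, DSC2, DSC1, DSG1, DSG4, DSG3, DSG2 and TTR, so that only the outer neighbours of the block belong to other families. The windows from 250 bases before to 50 bases after the start of the 5 desmosomal cadherin genes that passed the filter are shown because all had their highest level at 72 h. They are RefSeq sequences of GRCh38.p14, written 5′ to 3′ on the strand of the gene. Capitals mark CACCTG or its reverse complement CAGGTG, an E-box of the kind known to be bound by the SNAI and ZEB repressors.
DSC2, chr18:31102372-31102671, minus strand: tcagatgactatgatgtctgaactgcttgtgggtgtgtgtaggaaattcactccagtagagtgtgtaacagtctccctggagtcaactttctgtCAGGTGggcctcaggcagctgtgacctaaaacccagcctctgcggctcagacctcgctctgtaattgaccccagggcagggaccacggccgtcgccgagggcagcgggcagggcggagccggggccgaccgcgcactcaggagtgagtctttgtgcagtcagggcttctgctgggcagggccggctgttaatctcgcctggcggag
DSG2, chr18:31497927-31498226, plus strand: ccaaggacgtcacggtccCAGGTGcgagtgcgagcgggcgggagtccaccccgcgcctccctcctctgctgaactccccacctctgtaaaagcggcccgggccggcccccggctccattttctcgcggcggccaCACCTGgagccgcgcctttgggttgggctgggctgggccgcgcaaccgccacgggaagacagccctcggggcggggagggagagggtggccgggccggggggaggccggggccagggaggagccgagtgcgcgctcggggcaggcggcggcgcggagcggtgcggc
DSG3, chr18:31447491-31447790, plus strand: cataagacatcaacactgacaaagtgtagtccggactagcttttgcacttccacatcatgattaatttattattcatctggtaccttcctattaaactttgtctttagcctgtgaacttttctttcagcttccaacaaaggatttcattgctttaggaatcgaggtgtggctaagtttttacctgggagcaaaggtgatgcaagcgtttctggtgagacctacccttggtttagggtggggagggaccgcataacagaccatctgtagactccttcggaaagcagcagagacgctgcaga
DSG1, chr18:31317910-31318209, plus strand: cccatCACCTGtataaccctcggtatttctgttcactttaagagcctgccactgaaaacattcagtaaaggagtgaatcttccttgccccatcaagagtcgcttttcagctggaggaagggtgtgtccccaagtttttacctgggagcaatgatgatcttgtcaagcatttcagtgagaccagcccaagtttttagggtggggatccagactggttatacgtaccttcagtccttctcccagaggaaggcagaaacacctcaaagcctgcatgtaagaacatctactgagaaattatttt
DSC3, chr18:31042693-31042992, minus strand: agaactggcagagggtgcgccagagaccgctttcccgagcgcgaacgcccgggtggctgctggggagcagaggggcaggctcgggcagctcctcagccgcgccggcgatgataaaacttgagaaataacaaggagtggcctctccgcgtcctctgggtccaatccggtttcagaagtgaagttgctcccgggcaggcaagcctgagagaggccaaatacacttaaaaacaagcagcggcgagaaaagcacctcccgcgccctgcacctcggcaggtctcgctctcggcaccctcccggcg

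DSC2 held 1 E-box, whose first base lay at -156 from the start site, DSG1 held 1 at -245, and DSG2 held 2, at -232 and -116. DSG3 and DSC3 held none in this window. RefSeq windows were found for 33 of the 47 junction genes, and 10 of these held CACCTG on either strand, as did 20.6% of all 35116 promoter windows of the same length. Among the 20 windows of junction genes that passed the filter, 7 held it: CLDN3, DSC2, DSG1, DSG2, DSP, OCLN and TJP1. The TCF/LEF core CTTTGAT was in 0 of the 33 windows, against 2.62% of all windows, and the motif AACCGGTT of the GRHL factors was in 0 of 33, against 0.134%. Both strands were searched, and these letter matches describe the windows alone.

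Of the 28 junction genes that passed the filter, 22 were called at 72 h against 0 h, where 52.2% of all genes tested were called. Among them 16 rose (26.7% of all genes did) and 6 fell (25.5% of all genes did). At 48 h 12 were called, 10 higher and 2 lower, beside 23.5% of all genes (12.3% higher and 11.2% lower), and at 24 h 1 was called, DSC2, beside 1.04% of all genes (0.614% higher). Between siRNA times, 72 h against 24 h gave 21 calls, 14 higher and 7 lower, beside 50.3% of all genes (25.9% higher and 24.4% lower). The comparisons with 0 h share the same control libraries, and the last shares its 72 h libraries with the third. The median log2 fold change of the 28 genes was 0.05, 0.14 and 0.27 at 24, 48 and 72 h against 0 h, where the median of all genes tested was -0.003, -0.005 and 0.012. DSG1 and DSC3 passed the filter only through the 72 h libraries, in which they are highest, so neither their calls nor the counts that include them support a direction. PKP1 passed mainly through the 24 h pair, in which it is highest, so the same holds for its call at 72 h against 24 h and the 7 lower there. On TPM as deposited, without the scaling, the 72 h calls numbered 14, of which 8 were higher and 6 lower. Of all 11894 genes tested in that setting, 4968 were called, 1253 higher and 3715 lower. The median of all genes moved to -0.193, so small rises at 72 h rest on the scaling.

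**Figure D1:**
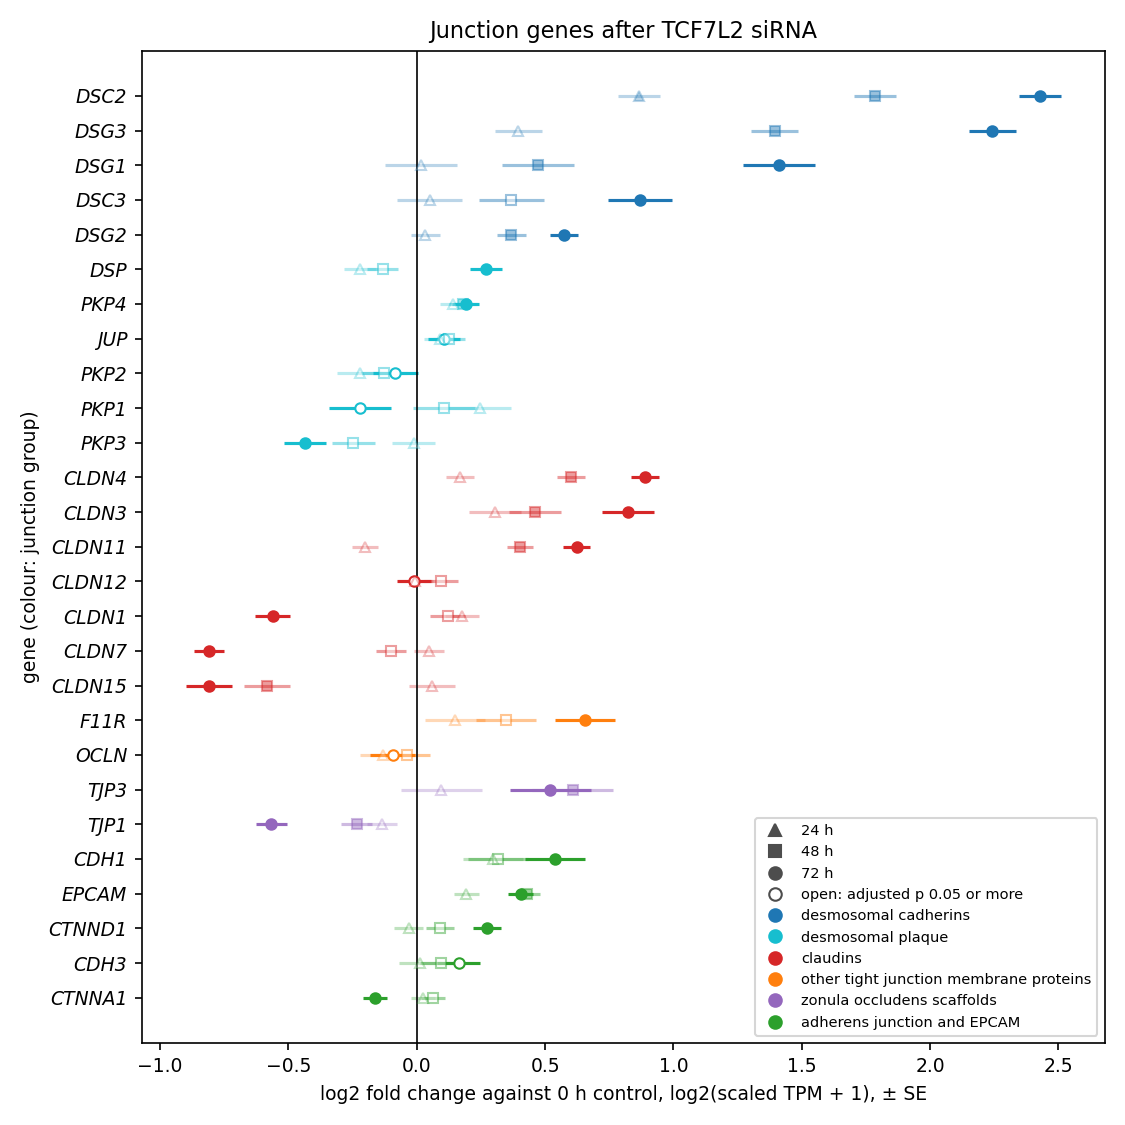
Log2 fold change of junction genes above the filter at 24, 48 and 72 h of TCF7L2 siRNA against the 0 h control, on the log2(scaled TPM + 1) scale with its SE, coloured by junction group, filled where the adjusted p was under 0.05. The desmosomal cadherins DSC2 and DSG3 reach 2.43 and 2.24 at 72 h, while the claudins spread to both sides of 0, from -0.81 to 0.89.

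Among the 7 desmosomal cadherins, DSC2, DSG3 and DSG2 had a scaled TPM of at least 1 in every library, and each of these rose at 72 h against 0 h, where 26.7% of all genes tested rose. DSG1 and DSC3 reached that level at 72 h alone, and DSG4 and DSC1 in no library. DSC2, a desmocollin of simple and stratified epithelia, had 3.07 and 3.39 scaled TPM in the 0 h controls, 6.45 and 6.99 at 24 h, 13.7 and 13.4 at 48 h, then 22.0 and 21.6 at 72 h. The groups did not overlap at any step, and each later pair lay above the earlier one. Its level at 72 h was 6.73 times that of the controls, a log2 fold change of 2.43 ± 0.08 (limma adjusted p = 6.19e-08). At 24 h the log2 fold change was already 0.87 ± 0.08 (adjusted p = 0.00431), which placed DSC2 10th from the top of 11889 genes, although without the first 24 h library the adjusted p was 0.0525. It was 11th from the top at 48 h and 25th at 72 h.

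DSG3, a desmoglein known from the lower layers of stratified epithelia, had 1.64 and 1.59 scaled TPM in the controls, 2.32 and 2.56 at 24 h, 5.88 and 5.87 at 48 h, then 11.5 and 11.3 at 72 h. The order of the groups was that of time, with no overlap. Its log2 fold change was 0.40 ± 0.09 at 24 h (limma adjusted p = 0.0751), then 1.40 ± 0.09 at 48 h (adjusted p = 2.74e-05) and, by 72 h, 2.24 ± 0.09 (adjusted p = 1.78e-07), where the level was 7.04 times that of the controls. Between the siRNA times, 72 h exceeded 24 h by 1.85 (adjusted p = 6.3e-07) for DSG3 and by 1.56 (adjusted p = 8.45e-07) for DSC2 on the log2 scale.

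DSG2, the desmoglein of simple epithelia and the most abundant desmosomal cadherin here, had 24.0 and 24.7 scaled TPM in the controls, 24.9 and 24.9 at 24 h, 31.7 and 31.6 at 48 h, then 35.9 and 37.5 at 72 h. The 24 h libraries lay close to the controls, and the later libraries above both. The log2 fold change was 0.37 ± 0.06 at 48 h (limma adjusted p = 0.00201) and 0.57 ± 0.06 at 72 h (adjusted p = 3.18e-05), 1.51 times the control level. On TPM as deposited both calls of DSG2 against 0 h were lost (adjusted p = 0.174 at 48 h and 0.0639 at 72 h). The log2 fold change there was 0.358 at 48 h, close to the scaled estimate, and 0.352 at 72 h.

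The other desmosomal cadherins were low throughout. DSG1, known from the upper layers of the epidermis, was listed at 0 and 0.15 scaled TPM in the controls, 0.13 and 0.0404 at 24 h, 0.371 and 0.612 at 48 h, then 1.98 and 1.72 at 72 h. Its log2 fold change at 72 h was 1.41 ± 0.14 (limma adjusted p = 3.71e-05), and at 48 h 0.47 ± 0.14 (adjusted p = 0.038), a call lost without any 1 of the control, 24 h or 48 h libraries (adjusted p = 0.0506 to 0.205) and with the replicate number as a block (adjusted p = 0.0514). DSC3 had 0.283 and 0.327 in the controls, 0.389 and 0.313 at 24 h, 0.561 and 0.819 at 48 h, then 1.38 and 1.39 at 72 h, where its log2 fold change was 0.87 ± 0.12 (adjusted p = 0.000344). Both genes were highest in the 72 h pair, at a level where a small amount of RNA decides the order.

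DSG4 and DSC1 failed the filter. DSG4, a desmoglein of the hair follicle, had 0.0754 and 0.0654 scaled TPM in the controls, 0.189 and 0.202 at 24 h, 0.561 and 0.603 at 48 h, then 0.728 and 0.674 at 72 h. Without the filter its log2 fold change was 0.67 ± 0.04 at 72 h (limma adjusted p = 1e-04). DSG4 stayed below 1 scaled TPM in every library, and its counting error at that level is unknown. DSC1 stayed between 0.0125 and 0.130 scaled TPM in the 8 libraries, where a small amount of RNA decides the order. Its 72 h pair was at 0.0582 and 0.0125, against 0.0848 and 0.0748 in the controls. Without the filter its log2 fold change at 72 h was -0.06 ± 0.03 (adjusted p = 0.215).

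**Figure D2:**
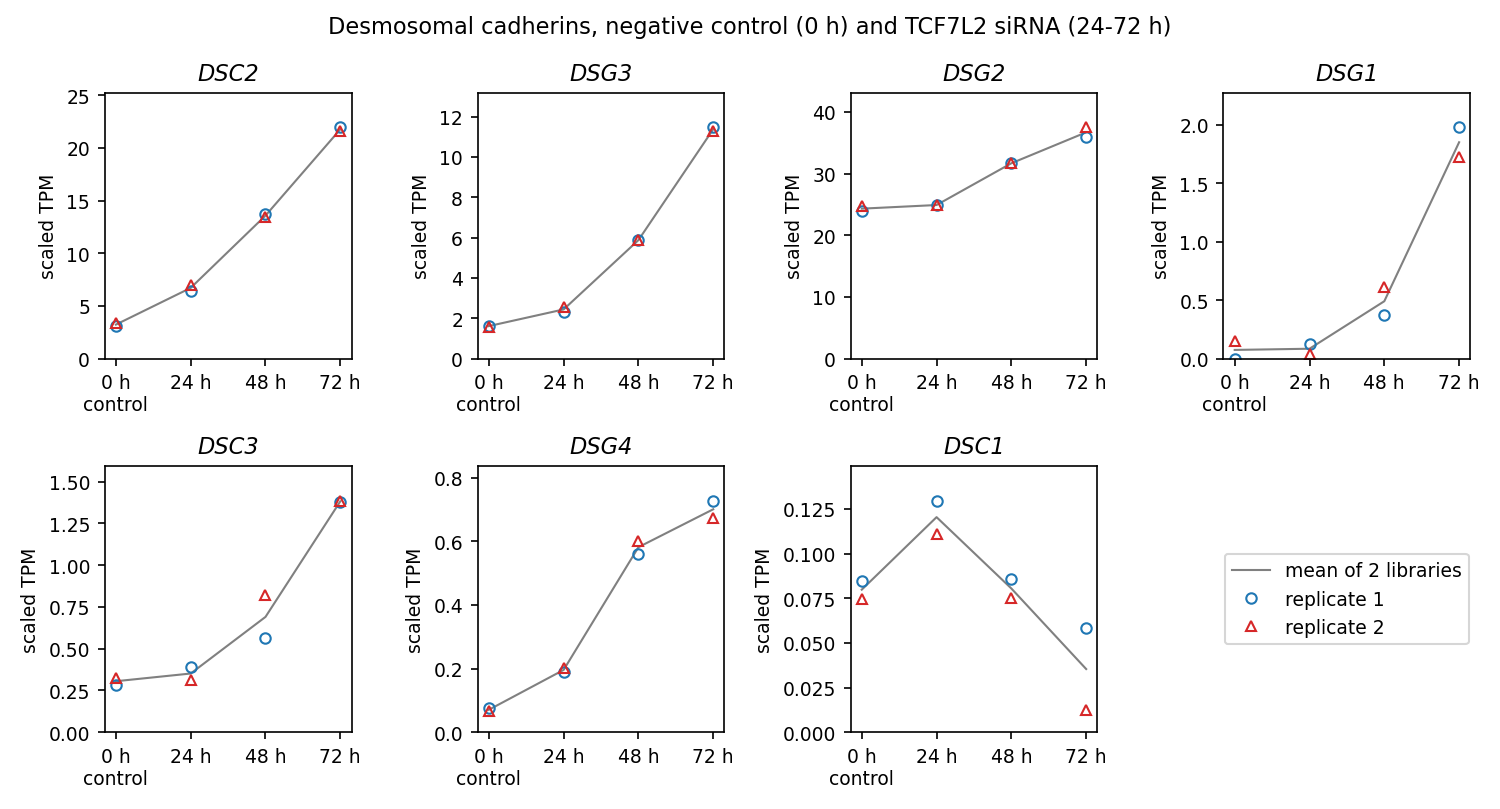
Scaled TPM of the 7 desmosomal cadherin genes in each library, with the 0 h control at the left and TCF7L2 siRNA at 24, 48 and 72 h, replicates as points and their mean as the line. DSC2 and DSG3 climb at every step to 22.0 and 11.5 in the first 72 h library, while DSC1 stays at or under 0.130.

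The genes beside the block were examined after its values had been seen. CDH2 (N-cadherin), next to DSC3, failed the filter, with 0.0094 and 0.0467 scaled TPM in the controls, 0.01 and 0.0202 at 24 h, 0.143 and 0.17 at 48 h, then 0.475 and 0.811 at 72 h. TTR, next to DSG2, was listed at 0 in all 8 libraries. B4GALT6, the next gene after TTR, rose by 0.65 ± 0.19 at 72 h on the log2 scale (limma adjusted p = 0.0157), and TRAPPC8, 2 genes on, had 0.17 (adjusted p = 0.169).

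Summed over the 7 genes, the desmosomal cadherins reached 73.5 and 74.2 scaled TPM at 72 h, against 29.1 and 30.3 in the controls. Their make-up, which no scaling affects, differed as well. DSG2 made up 48.8 and 50.6% of the sum at 72 h, against 82.3 and 81.5% in the controls. DSC2 made up 29.9 and 29.1% at 72 h, against 10.6 and 11.2% in the controls, and DSG3 15.6 and 15.2%, against 5.6 and 5.2%. These shares are described without a test.

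**Figure D3:**
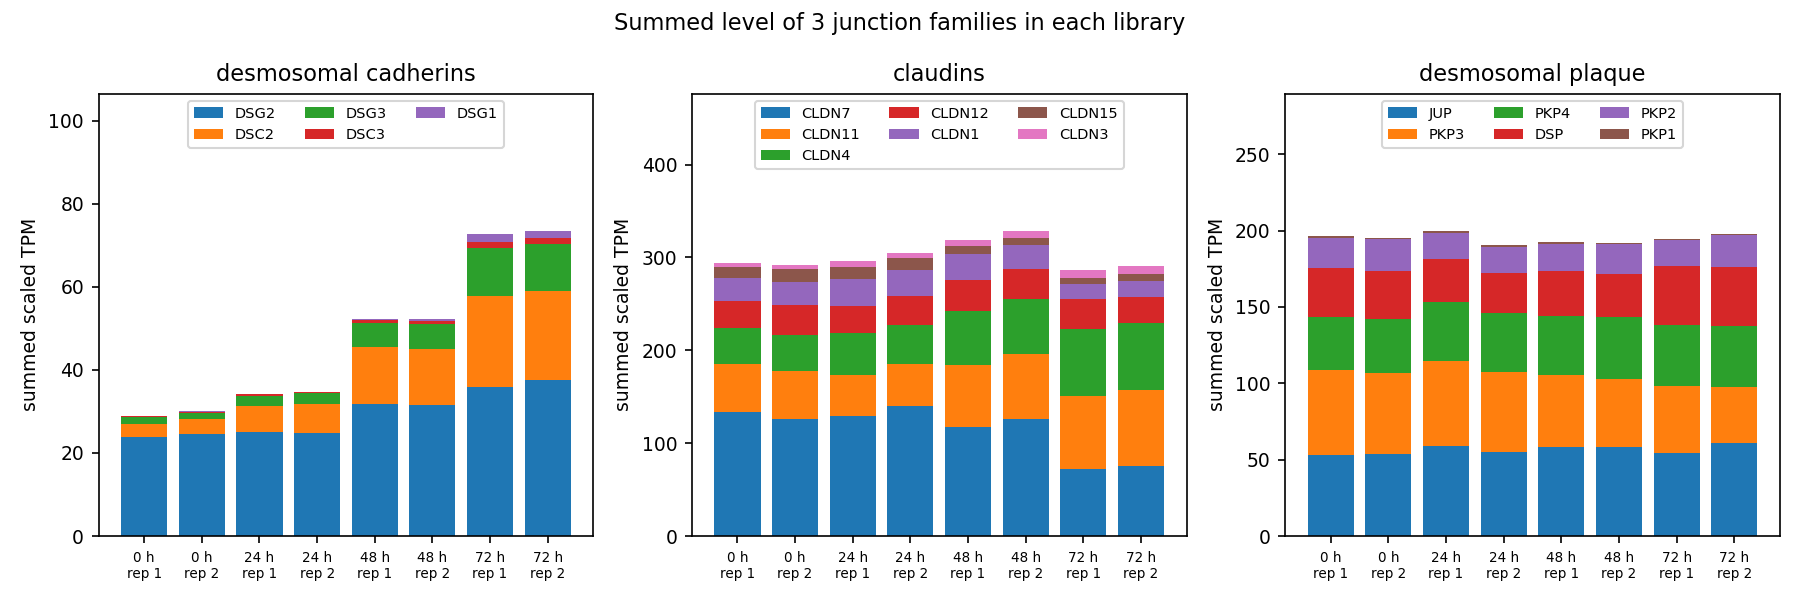
Summed scaled TPM of the desmosomal cadherins, the claudins and the desmosomal plaque genes in each of the 8 libraries, stacked by gene, with replicates side by side from the 0 h control to 72 h. The cadherin sum reaches 73.5 and 74.2 at 72 h, whereas the claudin sum stays between 288.6 and 330.5 and the plaque sum between 190.4 and 199.8, and within the claudins the CLDN7 segment is shorter and the CLDN4 and CLDN11 segments longer at 72 h.

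The plaque genes that link these cadherins to keratin kept a near-constant sum of 194.6 and 197.4 scaled TPM at 72 h, against 196.2 and 194.9 in the controls. Of 6 genes, DSP and PKP4 were called higher, PKP3 lower, and JUP, PKP1 and PKP2 were not called at 72 h against 0 h. Of all genes tested, 26.7% were called higher and 25.5% lower, so these calls do not set the plaque genes apart. DSP (desmoplakin), the keratin-binding protein of the plaque, had 32.4 and 31.2 in the controls, 28.2 and 26.0 at 24 h, 29.7 and 28.1 at 48 h, then 38.4 and 38.7 at 72 h. It thus lay below the controls at 24 and 48 h and above them at 72 h. Only the last of these differences passed the test, at 0.27 ± 0.06 (limma adjusted p = 0.00507). The step between 24 and 72 h was larger, at 0.49 (adjusted p = 0.000167). On TPM as deposited both were lost (adjusted p = 0.835 against 0 h and 0.0643 against 24 h).

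PKP3, a plakophilin found in most desmosomes, had 55.5 and 53.3 scaled TPM in the controls, 55.5 and 52.4 at 24 h, 47.2 and 44.2 at 48 h, then 43.9 and 36.4 at 72 h. Both later pairs lay below the controls, and the log2 fold change at 72 h was -0.44 ± 0.08 (limma adjusted p = 0.00184). PKP4, which also occurs at adherens junctions, had 34.4 and 35.2 in the controls, 38.9 and 38.2 at 24 h, 38.5 and 40.8 at 48 h, then 39.9 and 39.9 at 72 h. Its rise of 0.19 ± 0.05 at 72 h (adjusted p = 0.0144) was lost without the first control library (adjusted p = 0.0808) and was -0.03 on TPM as deposited (adjusted p = 0.887). Its call at 48 h (0.18 ± 0.05, adjusted p = 0.0376) was also lost in leave-one-out fits (adjusted p up to 0.209).

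PKP1, a plakophilin of stratified epithelia, was near the filter, with 0.895 and 0.701 scaled TPM in the controls, 1.22 and 1.05 at 24 h, 0.865 and 1.01 at 48 h, then 0.534 and 0.549 at 72 h. Only the 24 h pair and the second 48 h library reached 1. PKP1 therefore passed the filter mainly through the group where it was highest, and its call against 24 h does not support a direction. The 72 h pair was the lowest of the 4. It fell by 0.47 at 72 h against 24 h (SE 0.12, limma adjusted p = 0.00975; 0.0682 without the first 24 h library), and its -0.22 against 0 h was not called (adjusted p = 0.154). PKP2 ranged from 17.1 to 20.8 and JUP (plakoglobin) from 53.3 to 61.1 scaled TPM over the 8 libraries, and neither was called in any of the 4 comparisons.

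Among the 24 claudin genes, 7 passed the filter, and at 72 h against 0 h 3 of these rose and 3 fell while CLDN12 was not called (26.7% of all genes tested rose and 25.5% fell). CLDN4, a claudin that tightens the barrier to cations, had 38.2 and 39.0 scaled TPM in the controls, 45.2 and 41.8 at 24 h, 59.1 and 59.0 at 48 h, then 73.1 and 71.5 at 72 h. The groups were ordered by time without overlap, and the log2 fold change was 0.60 ± 0.05 at 48 h (limma adjusted p = 0.000145) and 0.89 ± 0.05 at 72 h (adjusted p = 1.85e-06), 1.87 times the control level. CLDN3, which lies next to CLDN4 on chromosome 7, had 4.36 and 4.84 in the controls, 6.32 and 5.54 at 24 h, 6.25 and 7.17 at 48 h, then 8.86 and 8.94 at 72 h. It rose by 0.46 ± 0.10 at 48 h (adjusted p = 0.0114) and by 0.82 ± 0.10 at 72 h (adjusted p = 0.000136). The 48 h call of CLDN3 was lost without the first control library (adjusted p = 0.0795) or the second 48 h library (adjusted p = 0.0845).

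CLDN11, known for the tight junctions of myelin and of Sertoli cells in the testis, had 51.7 and 51.6 scaled TPM in the controls, 44.3 and 45.4 at 24 h, 66.8 and 70.4 at 48 h, then 78.0 and 82.4 at 72 h. It was below the controls at 24 h (-0.20, limma adjusted p = 0.0994) and above them later, by 0.40 ± 0.05 at 48 h (adjusted p = 0.00101), then 0.62 ± 0.05 at 72 h (adjusted p = 1.3e-05). At 72 h it had the highest level of any claudin in both libraries. On TPM as deposited the 48 h calls of CLDN3 and CLDN11 were lost, CLDN11 with an adjusted p of 0.124. Their 48 h estimates there stayed close to the scaled ones, at 0.454 for CLDN3 and 0.391 for CLDN11.

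CLDN7, a claudin known to bind EPCAM in intestinal epithelium, had 134 and 126 scaled TPM in the controls, 129 and 140 at 24 h, 117 and 126 at 48 h, then 72.3 and 75.2 at 72 h. The 24 h pair overlapped the controls, the 48 h pair reached just below them, and the 72 h pair lay lowest, at 0.567 times the control level. Its log2 fold change was -0.10 at 48 h (limma adjusted p = 0.25) and -0.81 ± 0.06 at 72 h (adjusted p = 5.56e-06). CLDN1, a barrier-forming claudin, followed a like course, with 24.4 and 25.1 in the controls, 28.2 and 27.9 at 24 h, 28.3 and 25.6 at 48 h, then 15.9 and 16.9 at 72 h. Only the 72 h pair lay below the controls, with a log2 fold change of -0.56 ± 0.07 against 0 h (adjusted p = 0.000115) and -0.74 against 24 h (adjusted p = 2.52e-05).

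CLDN15, which forms cation pores in the intestine, differed in having fallen by 48 h. It had 12.0 and 13.9 scaled TPM in the controls, 13.6 and 13.3 at 24 h, 8.66 and 7.89 at 48 h, then 6.74 and 7.10 at 72 h. The log2 fold change was -0.58 ± 0.09 at 48 h (limma adjusted p = 0.00219) and -0.81 ± 0.09 at 72 h (adjusted p = 7.27e-05). CLDN12 ranged from 28.8 to 32.9 scaled TPM and was not called in any of the 4 comparisons.

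**Figure D4:**
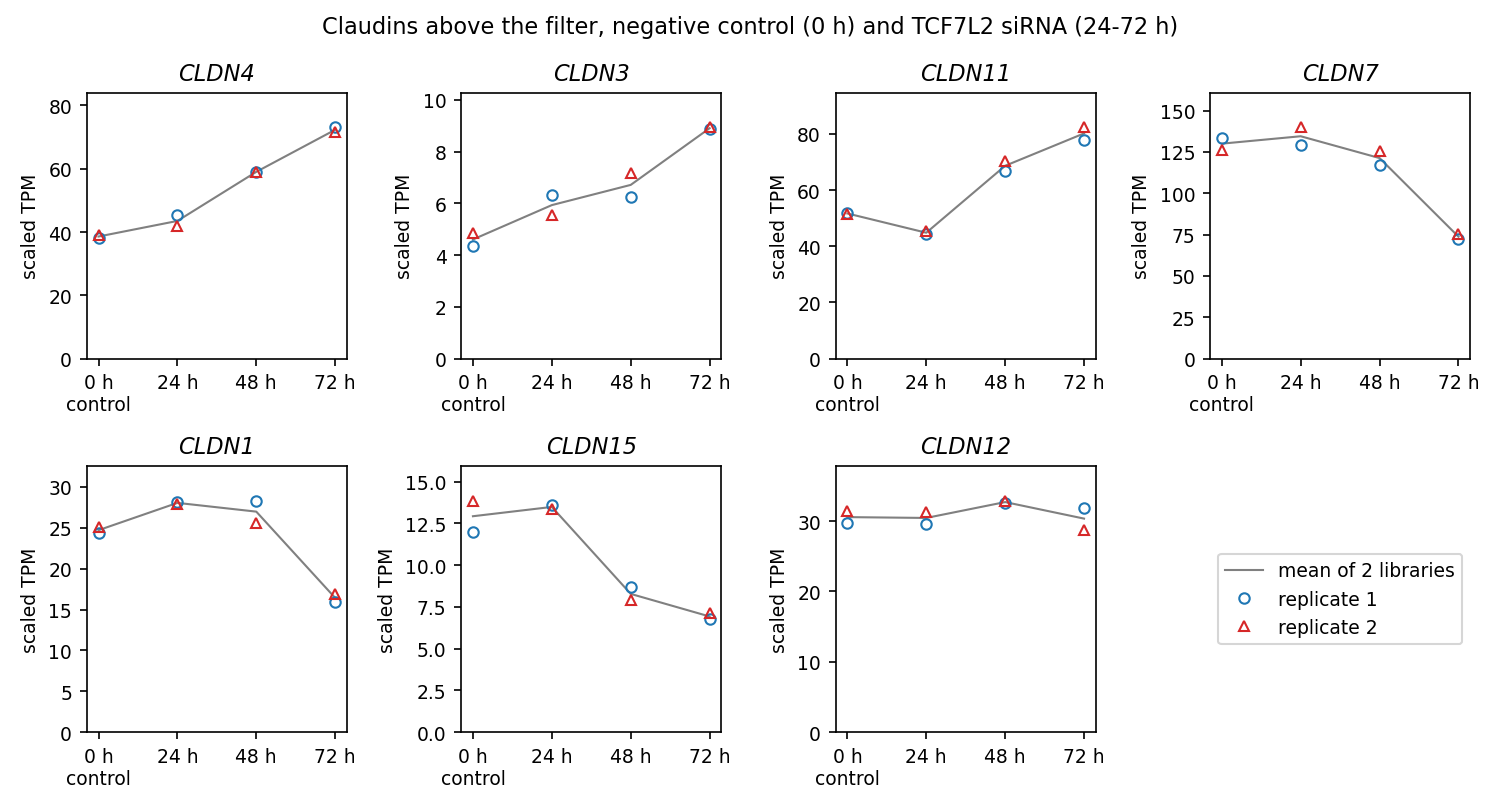
Scaled TPM of the 7 claudin genes above the filter in each library, with the 0 h control at the left and TCF7L2 siRNA at 24, 48 and 72 h, replicates as points and their mean as the line. CLDN4, CLDN3 and CLDN11 are highest at 72 h, CLDN7 and CLDN1 drop between 48 and 72 h, CLDN15 drops by 48 h, and CLDN12 stays between 28.8 and 32.9.

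The claudin sum was 288.6 and 293.0 scaled TPM at 72 h, against 295.2 and 293.4 in the controls, so rises and falls nearly balanced while the make-up shifted. CLDN7 made up 25.1 and 25.7% of the claudin sum at 72 h, against 45.3 and 43.1% in the controls. CLDN4 made up 25.3 and 24.4% at 72 h, against 12.9 and 13.3% in the controls, and CLDN11 27.0 and 28.1%, against 17.5 and 17.6%. The other 17 claudin genes failed the filter: CLDN22 was listed at 0 in every library, and the highest value among the rest was 0.649 scaled TPM, for CLDN24. CLDN2, the cation-pore claudin often described in colorectal tumours, stayed between 0.0471 and 0.0754.

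Of the other membrane proteins of the tight junction, OCLN had 12.1 and 13.5 scaled TPM in the controls, 11.7 and 11.5 at 24 h, 12.5 and 12.4 at 48 h, then 12.8 and 11.1 at 72 h, and was not called in any of the 4 comparisons. F11R (JAM-A), an immunoglobulin-like adhesion molecule, had 26.4 and 34.8 in the controls, 35.2 and 32.2 at 24 h, 40.6 and 37.1 at 48 h, then 45.5 and 51.1 at 72 h. Its control libraries lay far apart, and both the 48 h and the 72 h pair lay above them. The rise at 72 h was 0.65 ± 0.12 (limma adjusted p = 0.00122).

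Among the zonula occludens scaffolds, TJP1 fell and TJP3 was called higher, the second less firmly. TJP1 (ZO-1) had 26.7 and 25.6 scaled TPM in the controls, 24.0 and 23.4 at 24 h, 22.3 and 21.9 at 48 h, then 17.5 and 17.2 at 72 h. Each later pair lay below the earlier one, with a log2 fold change of -0.23 ± 0.06 at 48 h (limma adjusted p = 0.0204) and -0.57 ± 0.06 at 72 h (adjusted p = 5.1e-05). The 48 h call of TJP1 was lost without either control or either 48 h library (adjusted p = 0.0631 to 0.127).

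TJP3 (ZO-3), a scaffold of epithelia, was low, with 2.83 and 2.61 scaled TPM in the controls, 3.14 and 2.81 at 24 h, 5.84 and 3.69 at 48 h, then 4.28 and 4.38 at 72 h. The first 48 h library stood apart from its replicate. Its log2 fold change was 0.61 ± 0.16 at 48 h (limma adjusted p = 0.0226) and 0.52 ± 0.16 at 72 h (adjusted p = 0.0203). Without the first 48 h library the first of these had an adjusted p of 0.117, and the 72 h call was lost without either control library or either 72 h library (adjusted p = 0.0544 to 0.0928).

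In adherens junctions, CDH1 (E-cadherin) had 11.5 and 11.8 scaled TPM in the controls, 14.2 and 14.9 at 24 h, 13.4 and 16.2 at 48 h, then 15.4 and 19.6 at 72 h. All 6 siRNA libraries lay above both controls, and the rise passed the test at 72 h, at 0.54 ± 0.12 (limma adjusted p = 0.00374; 0.0913 on TPM as deposited). CDH3 (P-cadherin), next to CDH1 on chromosome 16, had 20.3 and 20.2 in the controls, 20.9 and 20.0 at 24 h, 22.8 and 20.7 at 48 h, then 21.1 and 24.7 at 72 h, and was not called in any of the 4 comparisons. CTNND1 (p120-catenin), which holds cadherins at the membrane, had 36.5 and 35.1 in the controls, 35.6 and 34.3 at 24 h, 38.2 and 38.0 at 48 h, then 42.3 and 44.6 at 72 h, with a rise of 0.27 ± 0.06 at 72 h (adjusted p = 0.00259; 0.826 on TPM as deposited).

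CTNNA1 (alpha-catenin), the link to actin, had 161 and 165 scaled TPM in the controls, 170 and 162 at 24 h, 174 and 167 at 48 h, then 147 and 144 at 72 h. The 72 h pair was the lowest. The log2 fold change was -0.16 ± 0.05 (limma adjusted p = 0.0145) and was lost without the second control library (adjusted p = 0.0894) or the second 72 h library (adjusted p = 0.0501). EPCAM, the most abundant of the 47 genes, had 415 and 416 in the controls, 458 and 494 at 24 h, 558 and 564 at 48 h, then 568 and 534 at 72 h. It rose by 0.43 ± 0.05 at 48 h (adjusted p = 0.00049) and by 0.40 ± 0.05 at 72 h (adjusted p = 0.000116), both lost on TPM as deposited (adjusted p = 0.124 and 0.425). The log2 fold changes of EPCAM on TPM as deposited were 0.42 at 48 h and 0.175 at 72 h.

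Across the 28 genes, 7 of the 12 calls at 48 h and 16 of the 22 calls at 72 h against 0 h held when each library was left out in turn, as did 15 of the 21 calls at 72 h against 24 h. DSC3 and DSG1 failed the filter once either 72 h library was left out, so their calls could not be tested there, and 4 calls were lost in each comparison with a 72 h group. At 72 h against 0 h 11 genes stayed called under every alternative other than the stricter thresholds: CLDN1, CLDN3, CLDN4, CLDN7, CLDN11, CLDN15, DSC2, DSG3, F11R, PKP3 and TJP1. The share of all genes tested whose calls held in the same fits is not given here, so these counts do not set the junction genes apart. Several junction genes overlap other annotated genes. CLDN7 overlaps ELP5 on the other strand, CTNND1 the readthrough gene TMX2-CTNND1, and CLDN12 the genes GTPBP10 and CDK14. F11R and CLDN11 each overlap another protein-coding annotation, and CTNNA1 the gene LRRTM2. Antisense transcripts overlap CDH1, CDH3, CTNNA1, DSC2, DSG1, DSG2, OCLN, PKP4 and TJP1. The sources used here do not give the strand setting, so reads of these genes and of their partners cannot be told apart and their levels are uncertain to that extent. ELP5 fell by 0.32 at 72 h on the log2 scale (SE 0.06, limma adjusted p = 0.00253).

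Partner genes of the junctions, listed by their known function, give the setting. Beside their counts at 72 h against 0 h stand the 26.7% of all genes that rose, the 25.5% that fell and the median of 0.012, and on TPM as deposited, where 25.2% of all calls were higher against 51.2% with scaling, the counts are given again. Of 16 proteins that bind or anchor to the plaque of desmosomes and adherens junctions, 14 passed the filter, of which 9 rose and 0 fell at 72 h against 0 h, with a median log2 fold change of 0.21, and 3 rose and 0 fell on TPM as deposited. KRT19, a keratin of simple epithelia, had 855 and 801 scaled TPM at 72 h, against 467 and 455 in the controls, a log2 fold change of 0.84 ± 0.04 (limma adjusted p = 6.37e-07). KRT20, a keratin of differentiated intestinal cells, had 2.89 and 3.23 at 72 h, against 0.49 and 0.58 in the controls, so that it passed the filter only through the later libraries. The groups did not overlap in KRT19. The call of KRT20, and the count of 9 that includes it, do not support a direction. KRT8 rose by 0.42 ± 0.04 (adjusted p = 1.47e-05; 0.399 on TPM as deposited) and CTNNA2, a neuronal alpha-catenin, by 1.09 ± 0.10 (adjusted p = 2.89e-05).

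Of 23 other tight junction proteins, 17 passed the filter, of which 4 rose and 4 fell at 72 h (median 0.09; 3 and 4 on TPM as deposited). CXADR, an adhesion molecule of the junction, had 24.3 and 25.2 scaled TPM at 72 h, against 12.4 and 13.0 in the controls, and CGN (cingulin), a scaffold that binds ZO proteins, 7.84 and 7.94, against 3.93 and 4.10. Both rose, by 0.91 ± 0.08 and 0.83 ± 0.10 (limma adjusted p = 1.21e-05 and 0.000134). AMOTL2 fell by 0.62 ± 0.08 (adjusted p = 0.000198) and LSR, a protein of tricellular contacts, fell by 0.53 ± 0.07 (adjusted p = 0.00028). Of 15 polarity genes, all 15 passed the filter, of which 2 rose and 6 fell (median -0.12; 0 and 6 on TPM as deposited). SCRIB fell by 0.58 ± 0.07 (adjusted p = 7.63e-05), LLGL2 fell by 0.38 ± 0.05 (adjusted p = 0.000116) and PRKCI fell by 0.34 ± 0.09 (adjusted p = 0.0128; 0.105 without the first control library and 0.0678 without the second 72 h library), while MPP5 (PALS1) rose by 0.50 ± 0.10 (adjusted p = 0.00267; 0.133 on TPM as deposited).

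Of 14 nectins and other cadherins, 8 passed the filter, of which 4 rose and 2 fell at 72 h (median 0.34; 3 and 3 on TPM as deposited). CDH11, a cadherin known from mesenchymal cells, had 39.9 and 36.2 scaled TPM at 72 h, against 11.1 and 11.8 in the controls, a log2 fold change of 1.65 ± 0.08 (limma adjusted p = 3.23e-07). CDH17, the cadherin of intestinal epithelium, had 9.85 and 9.36 at 72 h, against 2.86 and 2.96 in the controls, a rise of 1.44 ± 0.10 (adjusted p = 3.66e-06). An intestinal and a mesenchymal cadherin were therefore both higher. NECTIN2 rose by 0.90 ± 0.10 (adjusted p = 7.32e-05) and NECTIN1 fell by 0.58 ± 0.06 (adjusted p = 3.03e-05).

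Among transcription factors known to repress epithelial junction genes, 5 of 10 passed the filter, with 2 higher and 2 lower at 72 h (median -0.11; 1 and 2 on TPM as deposited). SNAI2 had 1.43 and 1.56 scaled TPM at 72 h, against 3.58 and 4.35 in the controls, a log2 fold change of -0.99 ± 0.11 (limma adjusted p = 7.62e-05). ZEB1 had 3.52 and 3.93, against 2.20 and 2.04, a rise of 0.60 ± 0.10 (adjusted p = 0.001). These E-box binding factors thus went opposite ways. PRRX1 fell by 0.77 ± 0.18 (adjusted p = 0.00635), and SNAI1 rose by 0.30 ± 0.10 (adjusted p = 0.035), a call lost without either control library (adjusted p = 0.113 and 0.104) or the second 72 h library (adjusted p = 0.186). Among 15 activators of epithelial genes, 12 passed the filter, with 3 higher and 4 lower (median -0.07; 1 and 5 on TPM as deposited). EHF rose by 0.71 ± 0.06 (adjusted p = 1.6e-05), HNF4A by 0.56 ± 0.06 (adjusted p = 6.68e-05; 0.0728 on TPM as deposited) and KLF5 by 0.37 ± 0.05 (adjusted p = 0.000304; 0.526 on TPM as deposited), while ESRP1 fell by 0.53 ± 0.05 (adjusted p = 4.27e-05).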

How the data were processed

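RNA levels were measured in 8 SW480 libraries, 2 for each of 4 groups. The authors deposited 1 table of TPM per gene symbol, made with RSEM for genome build hg19, with FastQC, Trimmomatic, STAR, Picard and SAMtools also named, per the submitters' processing notes. Tool versions, the gene annotation and the strand setting were not given in the sources used here. Treatment protocols in the labels speak of 3 treated replicates, of which 2 per group were analysed here.

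From the deposited TPM, each library was scaled because the listed TPM did not sum to the same total. The factor was the median of the library's ratios to the geometric mean of each gene. It was taken over the 10902 genes with a deposited TPM of at least 1 in all 8 libraries. Genes reaching a scaled TPM of 1 in at least 2 libraries entered the fit (11889 of 18656). One limma model (3.58.1, R 4.3.3) with a mean-variance trend was fitted to log2(scaled TPM + 1) of all 8 libraries, with 4 residual and 5.41 prior degrees of freedom and a median SE of 0.0913. On TPM as deposited the prior degrees of freedom were infinite. P-values were adjusted by the Benjamini-Hochberg method over all genes kept. The limma step was tested on simulated data. Tables were handled with pandas 2.3.3 in Python 3.11.15.

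Every junction gene above the filter is named, apart from 1 that is counted but not reported here, and up to 4 genes per partner list, those with the smallest p at 72 h against 0 h. The genes, lists and tests were chosen with earlier results of these data known. Alternatives covered scaling, pseudocount, filter, variance model, samples in the fit, a replicate block, stricter thresholds and leaving out each library. Gene order and promoter windows come from RefSeq GRCh38.p14, and overlaps from the GENCODE annotation given, neither being the authors' build, so they serve for names, neighbours and sequence alone.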

Additional observations from a re-analysis of the deposited data

How the results depend on the processing

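Counts of junction genes called moved with scaling and threshold. On TPM as deposited, 5 were called at 48 h against 0 h (main 12), 14 at 72 h against 0 h (8 higher and 6 lower; main 22, with 16 and 6) and 14 at 72 h against 24 h (8 and 6; main 21, with 14 and 7). At 48 h the lost calls kept estimates close to the main ones, such as 0.358 for DSG2 (main 0.368). With a minimum of 1.5-fold, 4, 10 and 9 were called in these 3 comparisons, and 7 at 48 h with an adjusted p under 0.01. Rescaling to equal sums gave 9 higher and 4 lower at 48 h, against 10 and 2. Leaving out 1 library in turn gave 0 to 2 calls at 24 h, 7 to 13 at 48 h, 18 to 22 at 72 h and 18 to 21 at 72 h against 24 h; where this left 1 library in a group, it was assumed to vary like the others, and DSC3 and DSG1 were untested without either 72 h library. PKP4 at 72 h against 0 h reversed on TPM as deposited, to -0.033; the cause was not tested. With the replicate number as a block, 1, 13, 22 and 21 junction genes were called in the 4 comparisons, with DSG1 at 48 h lost. Over all 11889 genes, the fit with the block called 90, 2678, 6175 and 5908. Deviations of same-numbered libraries correlated at -0.085 to 0.107, so no strong effect shared by same-numbered libraries was seen. These values cannot show whether such libraries were handled together.

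Over all genes, TPM as deposited gave 55 calls at 24 h (main 124), 922 at 48 h (main 2793; 59.4% higher), 4968 at 72 h (main 6207; 25.2% higher, main 51.2%) and 3977 at 72 h against 24 h (main 5981; 35.9% higher, main 51.4%), with the median of all genes at -0.105 in the last. Equal sums gave 33.5% higher at 24 h (main 58.9%) and 33.4% at 48 h (main 52.2%). At 24 h other settings gave 0 to 295 calls. An adjusted p under 0.01 gave 11 and 1238 calls at 24 and 48 h, a minimum of 1.5-fold 23, 464, 2039 and 1816 in the 4 comparisons, and leaving out a library 1330 to 3137 at 48 h. Read depth, unknown from TPM, limits every gene below 1 TPM, among them DSG4 and most claudins.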

Other observations

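Gap junction genes, which belong to no comparison above, formed a list of 8 connexins, of which 5 passed the filter. At 72 h against 0 h 0 rose and 2 fell (26.7% of all genes tested rose and 25.5% fell), with a median log2 fold change of -0.18, where the median of all genes was 0.012. With TPM as deposited, 0 rose and 3 fell. GJB1 and GJA1 were singled out after their values were seen. GJB1 (connexin 32) had 76.3 and 74.3 scaled TPM in the controls, 67.1 and 64.4 at 24 h, 86.3 and 83.6 at 48 h, then 63.3 and 62.3 at 72 h, so that the 48 h pair was the highest and the 72 h pair the lowest. GJA1 (connexin 43) had 7.92 and 7.66 scaled TPM in the controls, 8.88 and 8.03 at 24 h, 11.2 and 10.8 at 48 h, then 6.93 and 6.60 at 72 h. Its log2 fold change was 0.45 ± 0.08 at 48 h (limma adjusted p = 0.0052) and -0.18 ± 0.08 at 72 h (adjusted p = 0.0976). On TPM as deposited these were 0.438 (adjusted p = 0.0745) and -0.379 (adjusted p = 0.0479).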
